A study of Rattus norvegicus with 8 samples.

Results

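The 10 genes described here belong to the NRF2 pathway and to the glutathione and thioredoxin systems that it serves, and were followed in the distal colon mucosa of rats fed quercetin, a plant flavonol. They were listed by name for their function, with earlier results of these data known: Nfe2l2 and Keap1, the regulators, Slc7a11, Gclc, Gclm, Gss and Gsr, which supply, make and recycle glutathione, and Txn1, Txnrd1 and Srxn1 of the thioredoxin system. These are 10 of 10266 genes tested on the array. All 15 probe sets with 1 of these symbols as their only symbol were read, and the brightest probe set of a gene stands for it. For all 10 genes that probe set lay above the filter on dim signals, and 13 of the 15 probe sets did.

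Total RNA came from mucosa scraped off the distal colon and was hybridised to Affymetrix rat expression arrays, 4 from rats on a control diet (RM3 [E] FG SQC breeder pellets) and 4 from rats whose feed held quercetin at 10 g per kg, in each case after 11 weeks. The sources used here give neither strain, sex nor age. Separate animals per array are not stated in the labels. The p-values therefore speak only of the scatter among these 8 samples, some of which may be technical. A value is a MAS5 signal, a linear intensity per probe set. The mean without the top and bottom 2% of values was 200.1 on every array, from which a common scaling is inferred. Differences between diets are given as quercetin minus control on the scale log2(signal + 16), which understates the change of dim probe sets, and a gene passed if its Benjamini-Hochberg adjusted p from limma was under 0.05.

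NRF2, the product of Nfe2l2, is a transcription factor that is held in the cytoplasm and sent for destruction by KEAP1. Electrophiles and oxidants modify cysteines of KEAP1, NRF2 then accumulates, enters the nucleus and, with a small MAF partner, binds antioxidant response elements near genes for glutathione synthesis, thioredoxin reduction and detoxification. Control of NRF2 thus lies largely at the protein, which an mRNA array does not measure. In the colon these genes protect an epithelium that faces bacterial products and dietary compounds.

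None of the 10 genes passed the threshold (0 of 10, limma; 1 of the 10 had an unadjusted p under 0.05). Among all genes tested 0.00974% passed, which is 1 gene of 10266. Gsr, glutathione reductase, had the largest difference, 0.67 higher in quercetin, and was the 1 gene whose arrays did not overlap between the diets. Slc7a11, Gclc and Txnrd1 were higher by 0.26 to 0.28, Gclm, Gss and Keap1 were within 0.08 of 0, and Nfe2l2, Txn1 and Srxn1 were lower by 0.13 to 0.29. An unadjusted p under 0.05 was found for 9.39% of all genes (6.06% higher and 3.33% lower in quercetin), against 1 of these 10, and separate groups for 5.84% (3.77% higher, 2.07% lower), also against 1 of 10. The shares among the 10 genes were thus near the background. Of the 10 genes 7 had a difference above 0, against 55.9% of all genes, and their median was 0.06, against 0.04 over all genes.

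**Figure D1:**
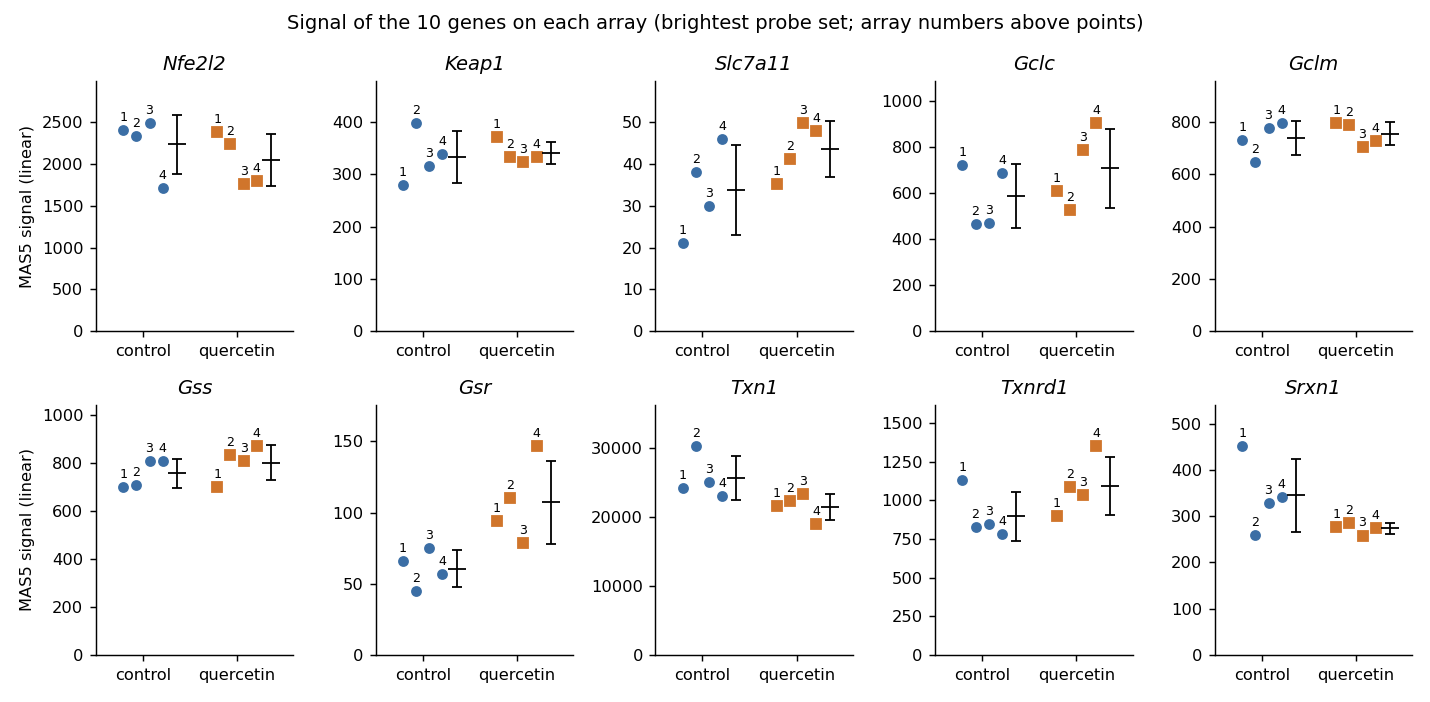
MAS5 signal on a linear axis from 0 for the brightest probe set of each of the 10 genes, with control arrays as circles, quercetin arrays as squares and the array number above each point. Black bars give the mean and SD of 4 arrays; the 4 quercetin points of Gsr, 78.5 to 147, lie above its 4 control points, 45.0 to 75.3, and the other 9 genes overlap.

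**Figure D2:**
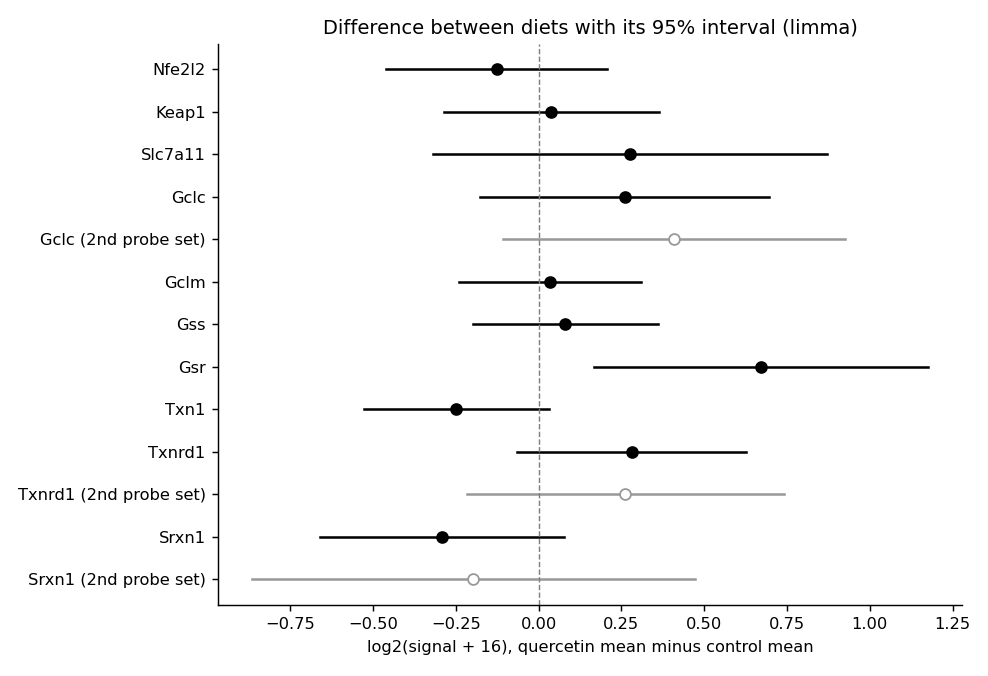
Quercetin mean minus control mean on the log2(signal + 16) scale for the 13 tested probe sets, with the 95% interval of limma as a line; filled points are the brightest probe set of a gene and open points a further one. The interval of Gsr runs from 0.17 to 1.18, and the intervals of the other 12 include 0.

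Some facts of the arrays bear on single values below. Control array 2 had a 3' to 5' signal ratio of 21.4 for beta-actin and 3.79 for GAPDH, which is a measure of how far the RNA was shortened or only partly copied, against 1.58 to 2.36 for GAPDH on the other 7 arrays. The beta-actin ratio also differed between the diets: it was 8.65, 10.2 and 12.4 on control arrays 1, 3 and 4 and 7.18, 8.90, 9.12 and 6.79 on quercetin arrays 1 to 4, so 3 of the 4 controls lay above every quercetin array. Quercetin array 4 had the highest hexokinase ratio, 6.05, against 1.62 to 3.27 elsewhere. Epithelial markers were above the filter, which keeps the upper 60% of all probe sets, for 8 of 8 genes. The summed signal of these markers was 82551 to 94550 in control and 77244 to 84870 in quercetin. The label of a mucosal scraping thus fits its epithelial markers. Of the markers of other cells, 7 of 12 for smooth muscle and 6 of 10 for macrophages and dendritic cells were above the filter. So were 2 of 8 for fibroblasts and 2 of 7 each for T cells and for B and plasma cells. The shares for smooth muscle and for macrophages and dendritic cells were near the 60% kept of all probe sets. They therefore say little of whether these cells were present. Tagln, Cnn1 and Cd3e were among those below the filter and Tpm1, Mylk and Cd3g among those above, all picked with their values in view. Markers of cycling cells were higher in quercetin for 8 of 8 genes, with summed signals of 2002 to 5104 in control and 4363 to 7125 in quercetin, and lowest on control array 1. In a scraping, fewer cells of a type and less RNA per cell cannot be told apart.

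NRF2 acts through the antioxidant response element, whose core is TGACNNNGC, with TGAGNNNGC as a variant that was added here after the sequences had been seen. RefSeq (build GRCr8) gave promoter windows from 250 bases before to 50 after the gene start, 300 bases each, for 9 of the 10 genes, with 2 windows for Txnrd1; Gsr was not among them. Both motifs were searched on both strands. TGACNNNGC was found in 3 of these 10 windows, those of Nfe2l2, Gclm and Txnrd1, and in 12.06% of all 33469 windows. TGAGNNNGC was found in 1 of the 10, that of Srxn1, which held 3 copies, and in 17.19% of all. One of those copies, TGAGTCAGC, contains TGAGTCA, the AP-1 site. The windows of Keap1, Slc7a11, Gclc, Gss and Txn1 and the other window of Txnrd1 held neither set of letters, which says nothing of sites elsewhere. The 4 windows with a match are printed because they show where the element's letters lie beside the starts of genes that NRF2 is known for; each reads 5′ to 3′ on the gene's strand, with the matches in capitals.

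Nfe2l2, chr3:81028950-81029249, minus strand: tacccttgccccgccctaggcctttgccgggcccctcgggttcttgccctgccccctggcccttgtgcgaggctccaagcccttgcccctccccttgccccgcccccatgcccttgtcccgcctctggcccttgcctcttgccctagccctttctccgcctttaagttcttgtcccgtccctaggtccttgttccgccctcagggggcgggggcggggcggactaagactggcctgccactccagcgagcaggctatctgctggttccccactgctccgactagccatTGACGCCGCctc
Gclm, chr2:213031885-213032184, plus strand: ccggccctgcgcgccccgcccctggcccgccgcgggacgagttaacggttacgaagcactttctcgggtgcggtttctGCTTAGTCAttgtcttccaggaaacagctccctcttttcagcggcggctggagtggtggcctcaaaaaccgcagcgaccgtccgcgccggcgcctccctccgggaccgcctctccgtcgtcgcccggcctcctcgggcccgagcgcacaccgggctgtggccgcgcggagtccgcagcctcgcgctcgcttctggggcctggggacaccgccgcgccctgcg
Txnrd1, chr7:22755855-22756154, minus strand: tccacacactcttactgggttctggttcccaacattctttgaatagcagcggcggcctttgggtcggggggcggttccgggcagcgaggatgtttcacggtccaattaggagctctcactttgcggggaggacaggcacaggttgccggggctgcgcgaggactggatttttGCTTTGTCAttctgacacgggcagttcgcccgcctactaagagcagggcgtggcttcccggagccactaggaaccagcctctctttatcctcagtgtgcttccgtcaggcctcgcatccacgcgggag
Srxn1, chr3:161064562-161064861, plus strand: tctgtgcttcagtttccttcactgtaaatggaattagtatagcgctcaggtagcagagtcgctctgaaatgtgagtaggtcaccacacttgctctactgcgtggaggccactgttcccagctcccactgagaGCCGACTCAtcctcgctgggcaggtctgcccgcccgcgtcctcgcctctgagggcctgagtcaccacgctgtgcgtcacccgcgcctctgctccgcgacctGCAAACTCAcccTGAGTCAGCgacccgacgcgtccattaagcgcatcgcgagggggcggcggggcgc

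The match in Gclm starts at base 79 of its window, on the opposite strand (TGACTAAGC), and that in Txnrd1 at base 173 (TGACAAAGC, opposite strand). That in Nfe2l2, TGACGCCGC, lies after the gene start, at base 289. In Srxn1 the matches begin at bases 133, 234 and 246, so that 2 of the 3 lie next to the gene start. A match is a description of letters. Of the genes that carry one in this window, Txnrd1 was higher by 0.28 and Gclm by 0.03, while Srxn1 was lower by 0.29 and Nfe2l2 by 0.13. None of the 4 passed and their intervals all include 0. Whether they share a direction therefore cannot be told from these values.

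Nfe2l2, which encodes NRF2 itself, had signals of 2406, 2335, 2495 and 1718 on control arrays 1 to 4 and 2378, 2240, 1759 and 1802 on quercetin arrays 1 to 4. Control array 4 was the lowest of all 8, and quercetin array 1 stood among the other controls, so the groups overlapped. The mean was 2238 ± 353 (SD, n = 4) in control and 2045 ± 311 (SD, n = 4) in quercetin. The log2 difference was -0.13 (SE 0.15, 95% interval -0.46 to 0.21, adjusted p = 0.815). It was -0.25 without control array 4 and -0.03 without control arrays 1 and 2. By the smallest root mean square difference of log2 values centred on their means over the 8 arrays, the profiles most like that of Nfe2l2, among 7083 genes that varied at least as much, were those of Acat2 (0.08), Nip7 (0.09) and Cldnd1 (0.10). Nfe2l2's own SD over the arrays was 0.23, and all genes on an array share its scaling.

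Keap1, the adaptor that hands NRF2 to the CUL3 ubiquitin ligase, had signals of 279.5, 399, 316 and 339.7 on the control arrays and 372, 333, 324 and 333 on the quercetin arrays. The lowest and the highest value were both control arrays, numbers 1 and 2. The mean was 334 ± 50.1 (SD, n = 4) in control and 341 ± 21.5 (SD, n = 4) in quercetin, a log2 difference of 0.038 (SE 0.15, 95% interval -0.29 to 0.36, adjusted p = 0.957). Its sign turned without control array 1 (-0.039). A dimmer Keap1 probe set lay below the filter, with signals of 2.47 to 29.6, and was not tested; its difference was -0.14. The profiles most like that of Keap1, among 9441 genes, were those of Ero1a (0.05), Ctbp1 (0.06) and 2610008E11Rikl (0.07), against an SD of 0.15 for Keap1.

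Slc7a11 encodes the light chain of the cystine and glutamate exchanger, which brings in the cysteine that limits glutathione synthesis. Its probe set was dim, just above the filter at a signal of 29.4, with 21.03, 38.1, 30.1 and 46.1 on the control arrays and 35.1, 41.3, 49.9 and 47.9 on the quercetin arrays. The 2 highest values were quercetin arrays 3 and 4 and the 2 lowest were control arrays 1 and 3, with overlap between. The log2 difference was 0.28 (SE 0.28, 95% interval -0.32 to 0.87, adjusted p = 0.765), and 0.14 without control array 1. Slc3a2, the heavy chain of the same exchanger, picked with its values in view, differed by 0.12 (SE 0.15, adjusted p = 0.819), with 267 to 354 in control and 303 to 357 in quercetin.

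Glutamate cysteine ligase carries out the first and rate-limiting step of glutathione synthesis, with a catalytic subunit, Gclc, and a modifier subunit, Gclm. Gclc had signals of 723, 464, 471 and 688 on the control arrays and 607, 527, 785 and 904 on the quercetin arrays. Quercetin arrays 3 and 4 were above every control array, and quercetin arrays 1 and 2 lay among them. The mean was 586 ± 138 (SD, n = 4) in control and 706 ± 171 (SD, n = 4) in quercetin, and the log2 difference 0.26 (SE 0.20, 95% interval -0.18 to 0.69, adjusted p = 0.688). Without quercetin array 4 the difference was 0.13, and without control array 2 or 3 it was 0.16 or 0.17. Over all fits with 1 array left out it ran from 0.13 to 0.39, the latter without quercetin array 2. A further Gclc probe set read 207, 117, 186 and 212 in control and 222, 156, 291 and 318 in quercetin. It too was lowest on control array 2 and highest on quercetin arrays 4 and 3, with a difference of 0.41 (SE 0.24, adjusted p = 0.582).

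Gclm was among the steadiest genes on the array: its residual SD of 0.11 on the log2 scale was at the 3.34 percentile of all genes tested, while that of Gclc, 0.34, was at the 66.0 percentile. Its signals were 729, 648, 776 and 797 in control and 794, 790, 705 and 728 in quercetin. The quercetin arrays fell within the span of the controls. The mean was 737 ± 65.9 (SD, n = 4) against 754 ± 44.4 (SD, n = 4), a log2 difference of 0.034 (SE 0.13, 95% interval -0.24 to 0.31, adjusted p = 0.953), and its sign turned without control array 2 (-0.025). Whether Gclc and Gclm differed from each other in their response was not tested.

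Gss, glutathione synthetase, adds the last amino acid, glycine. Its signals were 700.4, 708, 808 and 807 in control and 698, 831, 806 and 867 in quercetin, with the highest and the lowest value both on quercetin arrays. The mean was 756 ± 59.8 (SD, n = 4) against 801 ± 73.1 (SD, n = 4), and the log2 difference was 0.08 (SE 0.13, 95% interval -0.20 to 0.36, adjusted p = 0.868). Its residual SD of 0.12 was at the 5.41 percentile of all genes. The difference was 0.14 without quercetin array 1 and 0.041 without quercetin array 4, and its sign turned without control arrays 1 and 2 (-0.017).

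Gsr encodes glutathione reductase, which turns oxidised glutathione back to its reduced form with NADPH. Its signals were 65.9, 45.0, 75.3 and 56.7 on the control arrays and 93.9, 110.2, 78.5 and 147 on the quercetin arrays. All 4 quercetin arrays were above all 4 control arrays, though the gap between the nearest, control array 3 and quercetin array 3, was small beside the spread within either group. The mean was 60.7 ± 12.9 (SD, n = 4) in control and 107 ± 29.2 (SD, n = 4) in quercetin, and the log2 difference 0.67 (SE 0.23, 95% interval 0.17 to 1.18), a ratio of 1.59. After adjustment over all probe sets it did not pass (adjusted p = 0.344, rank 702 of 18625 by p). It was 0.45 to 0.80 in the 19 alternatives that gave a value, with adjusted p-values of at least 0.235; a stricter filter, the upper 40% of probe sets, left the gene out. The lowest array was control array 2, which had the highest beta-actin and GAPDH ratios. The highest was quercetin array 4, which had the lowest beta-actin ratio but the highest hexokinase ratio, 6.05. The part of RNA quality in the difference was not tested through the beta-actin ratio; with the GAPDH ratio as a covariate it was 0.62. Without control array 2 the difference was 0.57, without quercetin array 4 it was 0.53, and without control arrays 1 and 2 it was 0.57.

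Txn1, thioredoxin, is a small protein whose pair of cysteines reduces disulfides in other proteins. Its signals were 24183, 30258, 25124 and 23034 in control and 21570, 22285, 23288 and 18928 in quercetin. Control array 2 was the highest and quercetin array 4 the lowest, and quercetin array 3 lay above control array 4. The mean was 25650 ± 3189 (SD, n = 4) against 21518 ± 1865 (SD, n = 4), and the log2 difference was -0.25 (SE 0.13, 95% interval -0.53 to 0.03, adjusted p = 0.519). The probe set ranked 8 of 31042 by mean signal, where the normalisation matters. Quantile normalisation left a difference of -0.04, but it sets values by rank and so can show little change in a probe set near the top. The fit without control array 2 gave -0.17.

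Txnrd1, the cytosolic thioredoxin reductase, is a selenoprotein that returns electrons from NADPH to thioredoxin. Its signals were 1135, 825, 845 and 786 in control and 901, 1087, 1037 and 1350 in quercetin. Quercetin array 4 was the highest, control array 1 came next, and the other 3 quercetin arrays were above the other 3 control arrays. The mean was 898 ± 160 (SD, n = 4) against 1094 ± 188 (SD, n = 4), a log2 difference of 0.28 (SE 0.16, 95% interval -0.07 to 0.63, adjusted p = 0.565). The difference was 0.40 without control array 1 and 0.18 without quercetin array 4. A dimmer Txnrd1 probe set had 168, 147, 161 and 187 in control and 123, 222, 207 and 286 in quercetin, with a difference of 0.26 (SE 0.22, adjusted p = 0.718). On both probe sets quercetin array 4 was highest, while quercetin array 1 was the lowest of all on the dimmer one.

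Srxn1, sulfiredoxin, repairs peroxiredoxins whose active cysteine has been oxidised too far, and is a well-known NRF2 target. Its signals were 451, 259.7, 328 and 341 in control and 277, 286, 258 and 275 in quercetin. The quercetin arrays were close together and below 3 of the 4 controls, with control array 2 among them and control array 1 far above. The mean was 345 ± 79.0 (SD, n = 4) against 274 ± 11.5 (SD, n = 4), and the log2 difference was -0.29 (SE 0.17, 95% interval -0.66 to 0.08, adjusted p = 0.579). It was -0.16 without control array 1, -0.41 without control array 2 and -0.13 for the mean of the gene's 3 probe sets. A second, dimmer Srxn1 probe set differed by -0.20 (SE 0.31, adjusted p = 0.863), and the third, with signals of 3.25 to 24.8, lay below the filter.

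The extremes of the 10 genes were spread over 7 of the 8 arrays. Quercetin array 4 was the highest of the 8 arrays for 4 genes, Gclc, Gss, Gsr and Txnrd1, and the lowest for Txn1. Control array 2 was the lowest for Gclc, Gclm and Gsr and the highest for Keap1 and Txn1. Control array 1 was lowest for Keap1 and Slc7a11 and highest for Srxn1, and control array 4 was lowest for Nfe2l2 and Txnrd1 and highest for Gclm. The part of RNA quality in these arrays was not tested beyond fits without them, with array weights or with the GAPDH ratio as covariate. The part of the mix of cells was not tested, since no fit used the markers and leaving out an array does not single out its cells.

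**Figure D3:**
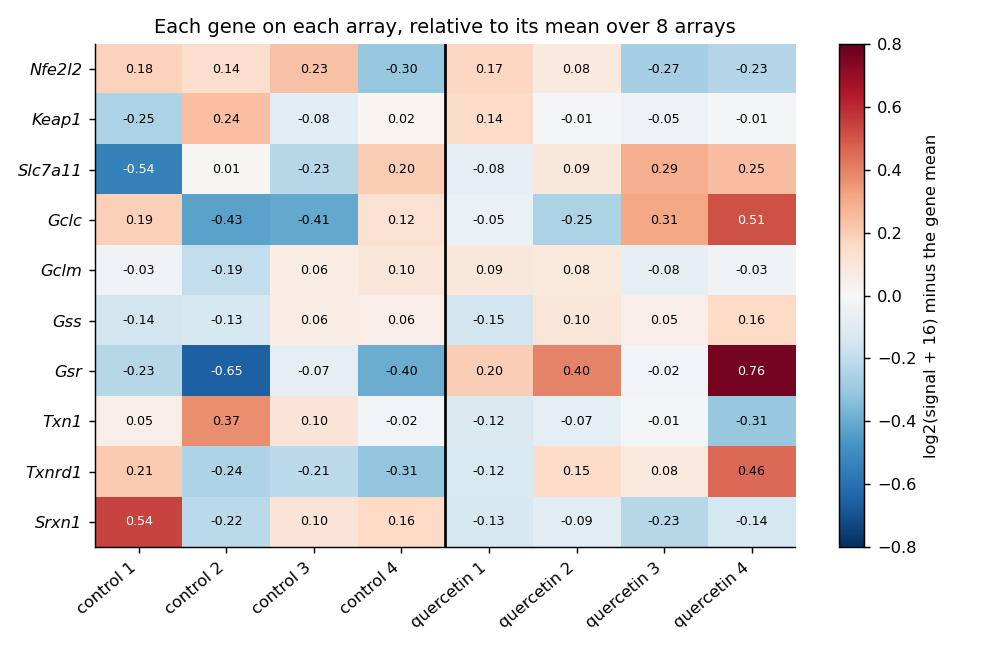
Heat map of log2(signal + 16) minus the gene's mean over 8 arrays, with genes in rows, arrays in columns, a line between the diets and the value in each cell. Gsr runs from -0.65 on control array 2 to 0.76 on quercetin array 4, and Txn1 the other way, from 0.37 to -0.31 on the same arrays.

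The other genes of these systems were read from 5 lists. Of 18 measured partners and regulators of NRF2, 8 were higher and 10 lower in quercetin, with a median of -0.005 and 0 past the threshold (limma; 1 higher and 1 lower at an unadjusted p under 0.05). Over all genes 6.06% and 3.33% had such a p, and here none did without control array 2, without control arrays 1 and 2, with array weights or with probe sets averaged per gene. With each array centred on its median the split was 12 higher and 6 lower, with a median of 0.05, and it was 11 and 7 without quercetin array 1 and 10 and 8 without control array 3. Cul3, the ligase scaffold that KEAP1 serves, had 2115 in control and 2108 in quercetin, a difference of -0.004 (chosen after its values were seen). Mafg, a small MAF partner of NRF2, differed by -0.54 (SE 0.23, adjusted p = 0.434), with 123, 194, 163 and 134 in control and 59.6, 113, 123 and 115 in quercetin. Pgam5, a mitochondrial phosphatase that KEAP1 binds, differed by 0.52 (SE 0.21, adjusted p = 0.391), with -0.22 on another of its probe sets. Park7, a redox-sensitive protein linked to NRF2 stability, had 1047 to 1291 in control and 1316 to 1610.5 in quercetin. Its difference was 0.25 (SE 0.13, adjusted p = 0.505), with no overlap. The groups of the leading Pgam5 probe set did not overlap either, only just. In the whole list of 18, 2 higher genes and 0 lower had separate groups, against 3.77% and 2.07% of all genes. Both were named for their small p, so their separation is not further evidence.

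Classical NRF2 targets outside the 10 genes were mostly higher in quercetin. Of 29 measured, 28 were higher and 1, Abcc1, was lower, and the median was 0.44, against 0.06 for the 10 genes and 0.04 for all genes. None passed (0 of 29, limma), while 11 higher genes and 1 lower gene had an unadjusted p under 0.05, and 4 higher and 1 lower had separate groups. Over all genes 55.9% were higher, 6.06% and 3.33% had such a p in the higher and the lower direction, and 3.77% and 2.07% had separate groups. Abcc3, an export pump for conjugates, had 569.5 to 630.5 in control and 767 to 1216 in quercetin, a difference of 0.76 (SE 0.16, adjusted p = 0.224). Cat, catalase, had 654 to 977 against 1111 to 1492, a difference of 0.72 (SE 0.15, adjusted p = 0.23). Abcc1, an exporter of glutathione conjugates, had 204 to 247 against 116 to 163, a difference of -0.67 (SE 0.17, adjusted p = 0.26). Hmox1, heme oxygenase 1, chosen after its values were seen, differed by 0.26 (SE 0.34, adjusted p = 0.83). The list was written with earlier results of these samples known, so its count is not independent evidence of a direction, and whether it differs from the 10 genes was not tested. In the 20 alternatives 25 to 28 of its genes were higher and the median was 0.26 (without quercetin array 1) to 0.54; without control arrays 1 and 2 the genes with an unadjusted p under 0.05 went from 12 to 4, the median being 0.27. Absorptive colonocyte markers were higher in quercetin for 7 of 10 genes, with summed signals of 49665 to 67297 in control and 59250 to 65653 in quercetin, and the cycling cell markers given above were higher for 8 of 8. The beta-actin ratio was above every quercetin array on 3 of 4 controls, as given above. The part of these measures in the result was not tested.

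Of 26 genes that supply, transfer or break down glutathione, 21 were higher and 5 lower, with a median of 0.12 and 0 past the threshold (limma; 5 higher and 1 lower at an unadjusted p under 0.05, and 2 and 0 without control arrays 1 and 2). Over all genes 55.9% were higher, and 6.06% and 3.33% had such a p in the higher and the lower direction. The median was 0.22 without control array 3, and 0.19 without control array 2 or quercetin array 1, and the genes with such a p went from 6 to 4 without quercetin array 1 and to 3 without quercetin array 2. The 3 with the smallest p were enzymes of the methionine cycle and of transsulfuration, the route from methionine to cysteine. Mat2a, which makes S-adenosylmethionine, had 4494 to 7307 in control and 3204 to 4480.0 in quercetin, a difference of -0.57 (SE 0.18, adjusted p = 0.304), with 0.40 and 0.28 on its dimmer probe sets. Ahcy, which splits S-adenosylhomocysteine, had 855 to 1082 against 1146 to 1746, a difference of 0.61 (SE 0.15, adjusted p = 0.26). Cbs, which joins homocysteine to serine, had 124 to 236 against 237 to 277, a difference of 0.65 (SE 0.19, adjusted p = 0.285). The groups of all 3 did not overlap, those of Cbs and Mat2a only just. In the whole list of 26, 3 higher genes and 1 lower gene had separate groups, against 3.77% and 2.07% of all genes. The 3 were named for their small p, so their separation is not further evidence. Cth, which releases the cysteine and was chosen after its values were seen, had 189 to 453 against 339 to 656, a difference of 0.67 (SE 0.25, adjusted p = 0.374), with overlap.

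Of 14 glutathione peroxidases, glutaredoxins and related enzymes, 10 were higher and 4 lower, with a median of 0.05 and 0 past the threshold (limma; 3 higher and 0 lower at an unadjusted p under 0.05). Over all genes 6.06% and 3.33% had such a p. The split turned to 6 higher and 8 lower without control arrays 1 and 2 (median -0.05) and with array weights (median -0.03). With 1 array left out the median ran from 0.03 (without control array 2) to 0.17 (without control array 1). Prdx6, a peroxiredoxin that uses glutathione, had 1570, 2111, 2820 and 1390 in control and 4658, 6652, 2049 and 3191 in quercetin. Its difference was 0.99 (SE 0.31, adjusted p = 0.311), and quercetin array 3 lay within the controls. Gpx2, the gastrointestinal glutathione peroxidase, which is also among the 29 targets, had 3674 to 4801 against 4900.2 to 8014, a difference of 0.46 (SE 0.16, adjusted p = 0.343). Mgst3, a microsomal glutathione transferase, differed by 0.71 (SE 0.28, adjusted p = 0.384), with 2150 on control array 2 and 5069 to 6833 on the other controls, against 6230.3 to 9089 in quercetin.

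Of 24 further thioredoxin genes, 9 were higher and 15 lower, with a median of -0.07 and 0 past the threshold (limma; 2 higher and 0 lower at an unadjusted p under 0.05). Over all genes 6.06% and 3.33% had such a p, and here none did without control array 1, control array 4, quercetin array 1 or quercetin array 2, without control arrays 1 and 2, or with the replicate block. With each array centred on its median 12 were higher and 12 lower, with a median of -0.02. Txnip, the inhibitor that binds thioredoxin, had a difference of -0.16 (SE 0.17, adjusted p = 0.789), and Txn2, mitochondrial thioredoxin, one of 0.04 (SE 0.15, adjusted p = 0.958) (this pair was picked with its values in view). Txndc5, a thioredoxin-like protein of the endoplasmic reticulum, differed by 0.54 (SE 0.24, adjusted p = 0.438), with 887 on control array 1 and 1683 to 2153 on the other controls, against 1977 to 2963 in quercetin. Apex1, a repair enzyme that thioredoxin acts on, differed by 0.50 (SE 0.22, adjusted p = 0.449), and Txnrd3 by -0.38 (SE 0.24, adjusted p = 0.60).

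**Figure D4:**
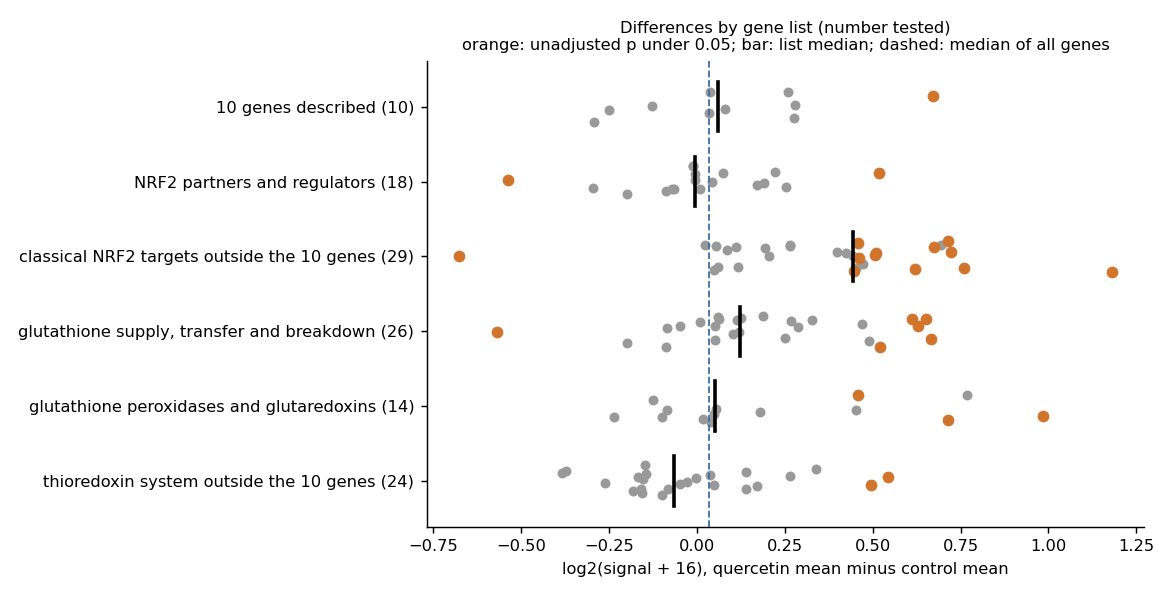
Quercetin mean minus control mean on the log2(signal + 16) scale for each measured gene of the 10 genes and of the 5 lists, spread vertically at random within a row; orange marks an unadjusted p under 0.05, a black bar the list median and the dashed line the median of all genes, 0.04. The 29 classical targets have a median of 0.44 and the 10 genes one of 0.06. None of the 29 passed the adjusted threshold. The lists were written with earlier results of these samples known, and the contrast was not tested.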

How the data were processed

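The authors deposited linear intensity values, 1 MAS5 signal per probe set and array; MAS5 is named per the submitters' processing notes, and no other step is known from the sources used here. The 57 array controls among the 31099 probe sets were dropped, and the upper 60% of the rest by mean over the 8 arrays, 18625, were tested on log2(signal + 16). The test was limma 3.58.1 under R 4.3.3, with eBayes moderation along a mean-variance trend and two-sided p-values, adjusted by Benjamini-Hochberg over all 18625; its steps were tested on simulated data. Precision is limited by the number of arrays, with a median SE of 0.22.

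Symbols came from the platform annotation (20826 probe sets with 1 symbol, 436 with several, 9780 with none), and Entrez identifiers matched RefSeq (GRCr8) for 20758 with 0 symbols changed. Groups and numbers were read from the titles. The 10 genes and all lists were chosen with earlier results of these data known. The 3 genes of a list with the smallest p were named, and any further gene is marked as picked with its values in view. Alternatives changed the pseudocount (1 or 64), the normalisation (quantile or median centring), the filter (none or the upper 40%) and the fit (array weights, no trend, a replicate block, the GAPDH ratio as covariate), averaged the probe sets of a gene, or left out 1 array or control arrays 1 and 2.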

Additional observations from a re-analysis of the deposited data

Results flagged for a closer look

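The tested probe sets of the 10 genes and the 3 genes of smallest p from each of the 5 lists made 56 groups of 4 arrays. In 2 of them a single array stood apart, its distance from the closest other array being over 0.83 of the group's whole range; about 2.8 would do so by chance. Mafg was low on quercetin array 1, at a signal of 59.6 against 113 to 123 on the other quercetin arrays (0.872 of the range). Gpx2 was low on control array 1, at 3674 against 4651 to 4801 on the other controls (0.881 of the range). None of the 10 genes was among them.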

How the results depend on the processing

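Among the 10 genes the largest SEs were those of the dimmest probe sets, 0.28 for Slc7a11 and 0.23 for Gsr. In 20 alternatives none of the 10 genes passed the adjusted threshold. Nfe2l2, Slc7a11, Gclc, Gsr, Txn1, Txnrd1 and Srxn1 kept their sign in all that gave a value. Keap1 turned to -0.053 with the mean of its probe sets and ran from -0.039 to 0.12 with 1 array left out. Gclm was -0.031 with array weights and -0.061 without control arrays 1 and 2, and ran from -0.025 to 0.072 with 1 array left out; Gss was -0.017 without control arrays 1 and 2. The number of the 10 genes with an unadjusted p under 0.05 went from 1 to 0 with the upper 40% of probe sets, which leaves out Gsr, to 2 with array weights and to 3 with the GAPDH ratio as a covariate, and was 0 to 2 with 1 array left out; the cause was not tested. The classical targets, whose alternatives were chosen after seeing the data, had 12 such genes, and 4 without control arrays 1 and 2. The probe sets past the threshold on the whole array, 2, were 1 with quantile normalisation, median centring, no filter or no trend, 3 with a pseudocount of 64, 0 without control arrays 1 and 2, and 1 to 2 with 1 array left out. With the replicate block there was 1. The labels do not state that the shared numbers pair the samples. The deviations of same-numbered arrays correlated at -0.15 to 0.16, which are too few values to decide it.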

Other observations

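Several classical NRF2 targets were high on quercetin arrays 1 and 2 and within the control range, or near it, on quercetin arrays 3 and 4. These genes were picked after their values were seen, their number among the 29 was not counted, and no test was made. Other targets did not run this way: Abcc3 had 767 on quercetin array 1 and 1216, 954 and 1156 on arrays 2 to 4. Nqo1, a quinone reductase, had signals of 598 and 647 on quercetin arrays 1 and 2 and 239.7 and 277 on arrays 3 and 4, against 248 to 316 in control. Akr1b8, an aldo-keto reductase, had 2812 and 2008 against 648 and 684, with 636 to 937 in control. Gsta3, a glutathione transferase, had 255 and 334 against 71.7 and 79.4, with 23.8 to 93.3 in control. Me1, malic enzyme, had 941 and 913 against 408 and 626, with 426 to 713.5 in control. Gclc ran the other way within the same diet, with 607 and 527 on quercetin arrays 1 and 2 and 785 and 904 on arrays 3 and 4, and Slc7a11 was 35.1 and 41.3 against 49.9 and 47.9.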
